A study of Mus musculus with 12 samples.

Results

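Interscapular brown adipose tissue (BAT) of mice lacking Txnip was compared with that of wild-type (WT) mice after 1 week of acclimation at 30 °C, and the genes with higher expression in the knockout are described. The comparison rested on 6 of the 12 libraries of the series, 3 from WT and 3 from Txnip-/- BAT at 30 °C (thermoneutrality, TN). The other 6, 3 per genotype, came from mice kept at 23 °C (room temperature, RT) and were used only to see where the response at 30 °C differed. All groups were 10-week-old male mice on a C57B/6J background fed standard chow, and the knockout mice lacked Txnip in the whole body and not in fat alone. Poly(A)-selected RNA was sequenced as single-end reads of 75 bases, and nothing in the labels ties each library to a mouse of its own, so that the p-values measure the spread between these libraries only.

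Txnip encodes thioredoxin-interacting protein, an alpha-arrestin that binds thioredoxin and restrains glucose uptake, and whose expression rises with glucose. BAT burns fat and sugar to make heat through the uncoupling protein Ucp1 in its brown adipocytes, an activity that needs little recruitment at thermoneutrality. The tissue also holds resident macrophages, which clear dying cells and spent lipid, as well as fibroblastic progenitors, which lay down the collagen matrix, and endothelial and nerve cells.

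The libraries held from 29930000 to 47440000 reads, rounded to 4 digits. The tissue label was checked by adipocyte genes: the summed level of the 10 pan-adipocyte markers (Adipoq, Plin1, Fabp4 and others) was 19532 to 21471 TPM (transcripts scaled to length and to the total of the library) in WT and 19330 to 21059 in Txnip-/- libraries, and none of the 10 passed the test. The first principal component, with 54.4% of the variance, placed the WT libraries between -23.1 and -13.7 and the knockout libraries between 11.6 and 22.7, so that the genotypes did not overlap on it.

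Txnip checked the genotype labels. It stood at 1238, 1083 and 1072 TPM in WT libraries 1 to 3 and at 11.02, 14.42 and 10.52 TPM in the knockout libraries. Every knockout library was far below every WT library, with a log2 difference of -6.46 (SE 0.12, adjusted p = 1.97e-07), although some signal was left. An exact two-sided permutation test over the 6 libraries gave p = 0.1, the smallest value that 3 against 3 can give. Gm15441, a non-coding transcript on the opposite strand that overlaps Txnip on chromosome 3, went from 413.1, 336.7 and 323.3 TPM to 160.3, 173.7 and 140.9 TPM (log2 difference -1.17, adjusted p = 0.00302). Whether the counting used strand is not given in the sources used here, so reads of this pair cannot be told apart.

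Loss of Txnip at 30 °C raised more genes than it lowered. Of 12891 genes with a mean of at least 1 TPM over the 6 libraries, 836 were higher in Txnip-/- BAT (6.49% of the genes tested) and 280 were lower (2.17%). A gene was called when its difference on the log2(TPM + 1) scale was beyond 0.32 in either direction and its adjusted p was below 0.05, the p-value coming from limma with Benjamini-Hochberg adjustment over all 12891 genes. The median log2 difference of the raised genes was 0.68, and 161 of them exceeded 1, while 23 of the lowered genes were below -1. Raised genes were less abundant than lowered genes, with a median level of 6.67 against 26.4 TPM. The median over all genes tested was 0.01. In all 1116 called genes the groups did not overlap, so the lack of overlap adds nothing to a call. The number of raised genes depended on single libraries of both genotypes: it was 359 without Txnip-/- replicate 1, 361 without Txnip-/- replicate 2, 530 without WT replicate 1 and 537 without WT replicate 3.

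**Figure D1:**
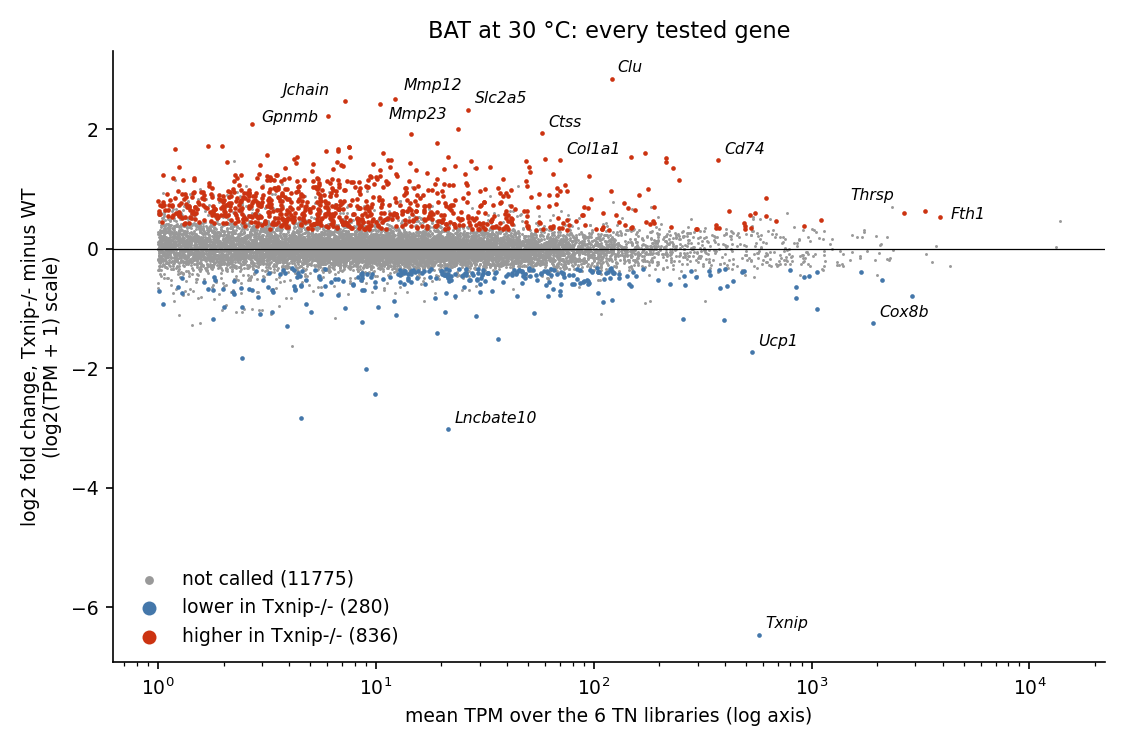
Each point is 1 of the 12891 genes tested at 30 °C, with its mean level over the 6 libraries (TPM, log axis) against its log2 difference, Txnip-/- minus WT, on the log2(TPM + 1) scale. The 836 genes called higher lie at all levels, 51 of them at a mean of 100 TPM or more, while Txnip lies alone at -6.46.

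The raised genes with the largest differences came from several groups: a secreted chaperone, matrix proteases, macrophage genes, a plasma cell gene and a sugar transporter. Clu encodes clusterin, a secreted chaperone that also inhibits the end step of complement. It was at 23.3, 29.9 and 32.9 TPM in WT and at 229.7, 175.0 and 233.6 TPM in Txnip-/- libraries, the largest difference among genes with a mean of at least 5 TPM (log2 difference 2.85, SE 0.15, adjusted p = 0.000214). All 3 knockout libraries exceeded the highest WT library by a wide margin. Mmp23, a membrane-bound metalloproteinase, rose from 2.7, 2.91 and 2.09 TPM to 14.0, 21.5 and 19.4 TPM (2.42, SE 0.16, adjusted p = 0.000901). Gpnmb, a transmembrane glycoprotein of macrophages filled with lipid, rose from 1.26, 1.75 and 1.41 TPM to 10.3, 11.95 and 9.501 TPM (2.22, SE 0.11, adjusted p = 0.000214). For both genes the 3 libraries of a group lay close together and far from the other group. Jchain, which joins polymeric immunoglobulins and is made by plasma cells, had 0.83, 1.33 and 2.54 TPM in WT and 12.5, 11.7 and 14.3 TPM in Txnip-/- BAT (2.48, SE 0.22, adjusted p = 0.00241).

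Slc2a5 encodes a fructose transporter. Its levels were 3.70, 17.2 and 6.88 TPM in WT and 43.2, 34.0 and 54.6 TPM in Txnip-/- libraries. The WT libraries were scattered, with replicate 2 well above the others. The log2 difference was 2.33 (SE 0.43, adjusted p = 0.0167), and the call was lost without WT replicate 3 or without Txnip-/- replicate 1, with an adjusted p of up to 0.0607. A similar scatter was seen for Mmp12, the macrophage metalloelastase (0.88, 3.29 and 5.63 TPM against 24.0, 25.9 and 13.8 TPM, log2 difference 2.51), whose adjusted p of 0.0132 became 0.0520 at most without Txnip-/- replicate 1 or 2.

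Further down the order stood genes of varied function. Hdac11, a histone deacetylase that also removes fatty acyl groups (1.65), Nfe2l3, a bZIP transcription factor (1.64), Gulp1, an adaptor for the engulfment of dying cells (1.60), Pth1r, the receptor for parathyroid hormone (1.46), and Pdlim2, a PDZ and LIM domain protein of the cytoskeleton (1.46), were called in all 15 alternative analyses. Pth1r was at 11.8, 17.4 and 13.5 TPM in WT and at 42.3, 41.7 and 37.7 TPM in Txnip-/- BAT. Gulp1 was at 5.31, 5.35 and 3.90 TPM in WT and at 18.8, 16.4 and 14.9 TPM in the knockout. The knockout libraries of each gene differed little among themselves. Net1, a guanine nucleotide exchange factor (1.47), was less even: its knockout libraries stood at 76.6, 96.2 and 44.2 TPM, and its adjusted p of 0.0237 reached 0.0838 without 1 library, the call being lost without WT replicate 1 or 3 or Txnip-/- replicate 1 or 2.

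Some entries among the 30 largest are not independent. Ear2, Ear3 and Ear12, eosinophil-associated ribonucleases, overlap on chromosome 14 and may share reads, and Ear3 and Ear12 had equal TPM in all 6 libraries. Their rise (1.68, 1.70 and 1.70) came with an uneven spread in the knockout (12.3, 20.2 and 4.91 TPM for Ear3), and the calls were lost without any WT library or without Txnip-/- replicate 1 or 2, with adjusted p of up to 0.127. Mir5107 (1.5) lies inside an exon of Cd74 on the same strand, so its value follows that of Cd74. Gm35986 (1.93), a non-coding transcript near Elovl6 on chromosome 3, lost its call without Txnip-/- replicate 1, with an adjusted p of 0.0519. Many genes named here, among them Mmp12, Hdac11, Csf1r, Cd9, Ctsb, Ctsa, Ucp2, Pltp, Cp, Ccnd1, Cxcl16, Eln, Nnat, Mest and Fabp3, overlap an exon of a gene on the opposite strand, so that their values are as uncertain as those of Txnip and Gm15441 in what each strand gave.

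**Figure D2:**
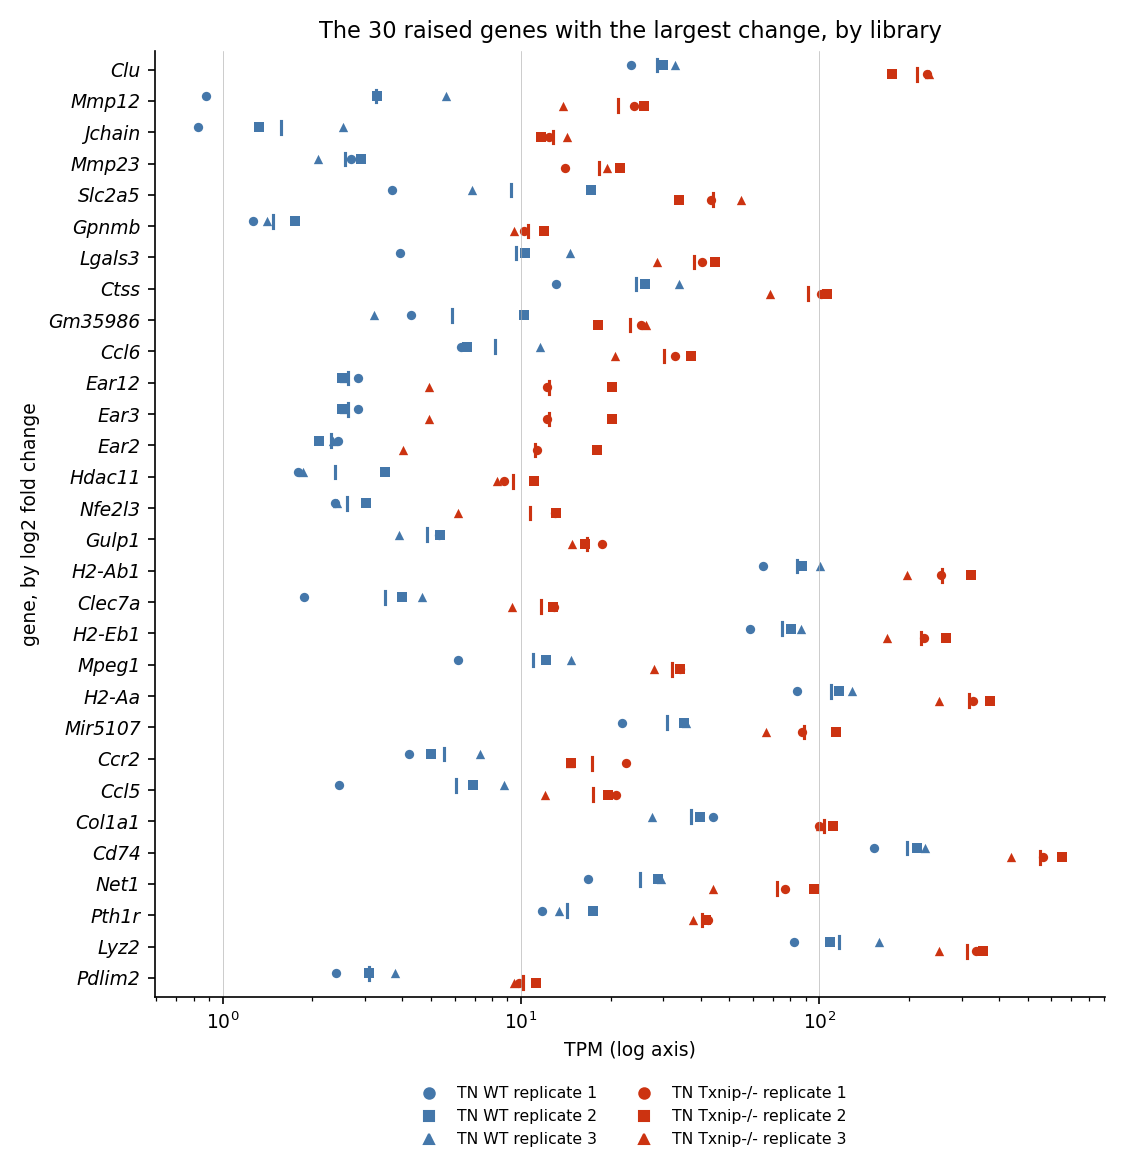
Levels (TPM, log axis) of the 30 raised genes with the largest log2 differences, 1 line per gene, with a point for each of the 3 WT and 3 Txnip-/- libraries at 30 °C and a tick at each group's mean. The absence of overlap between the groups was a condition for choosing these 30, and the WT libraries of Mmp12, Slc2a5 and Lgals3 are the most scattered, from 0.88 to 5.63 TPM for Mmp12.

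Many genes that mark macrophages were raised. Of 23 tested macrophage identity genes, 14 rose (60.9%, against 6.49% of all genes) and none fell, with a median log2 difference of 0.85, and in 19 all 3 knockout libraries lay above all 3 WT libraries, as was so for 17.7% of all genes tested. Lyz2, the lysozyme of myeloid cells, went from 82.2, 108.6 and 158.0 TPM to 335.6, 353.6 and 252.4 TPM (1.46, adjusted p = 0.00998). Cd14, the co-receptor for lipopolysaccharide, went from 3.98, 5.04 and 5.56 TPM to 14.3, 16.0 and 13.3 TPM (1.41, adjusted p = 0.00235). In both genes the lowest knockout library was well above the highest WT library. The adaptor Tyrobp (1.37), the scavenger protein Cd68 (1.32), the surface receptor Adgre1 (1.03), the growth factor receptor Csf1r (0.85) and the mannose receptor Mrc1 (0.74) also rose. Cd163 (2.7 to 2.82 TPM on average), Mertk (4.60 to 5.55 TPM) and Cx3cr1 (2.62 to 3.67 TPM) did not pass the test, and Marco was near 0 in both groups, at 0.14 and 0.10 TPM.

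The summed level of the 26 macrophage identity genes was 225, 310 and 380 TPM in WT and 757, 866 and 607 TPM in Txnip-/- libraries. In bulk tissue, more cells of a type and more RNA of these genes per cell cannot be told apart. The count of 14 was 10 without Txnip-/- replicate 1 or 2 and between 13 and 17 without any other library, with centring on the median, and on the authors' log-scale values.

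Genes of lipid-associated macrophages, which gather where adipocytes die or overfill, showed the same direction. Of 17 tested 10 rose (58.8%, against 6.49% of all genes), with a median of 0.86. Besides Gpnmb and Mmp12 these were Lgals3, the lectin galectin-3 (3.93, 10.3 and 14.6 TPM against 40.6, 44.9 and 28.5 TPM, log2 difference 2.0), Itgax (1.53), the proton pump subunit Atp6v0d2 (1.46), the lipid receptor Trem2 (1.44), Capg (1.28), Cd63, Cd9 and Ctsb. Trem2 was at 0.78, 2.42 and 2.71 TPM in WT and at 6.59, 6.84 and 6.53 TPM in Txnip-/- libraries, so that the knockout libraries were nearly equal while WT replicate 1 was lower than its fellows. WT replicate 1 was the lowest library for Lgals3, Lyz2 and the summed macrophage genes as well. Spp1 (0.70 to 1.40 TPM), Apoe (0.28 on the log2 scale) and Lipa (-0.22) did not pass the test. Of these 10 calls, 6 were left without Txnip-/- replicate 1 or without replicate 2, and those lost included Mmp12, Lgals3, Itgax and Trem2, with adjusted p of up to 0.0678.

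MHC class II genes, whose products present peptides to helper T cells, were raised. Of the 9 tested 8 were higher (88.9%, against 6.49% of all genes), with a median of 1.32, and in all 9 the 3 knockout libraries lay above the 3 WT libraries, against 17.7% of all genes. Cd74, the invariant chain that guides class II molecules to the endosome, stood at 152.6, 212.8 and 225.8 TPM in WT and at 563.9, 648.8 and 439.3 TPM in Txnip-/- libraries (1.48, SE 0.18, adjusted p = 0.0056). The chains H2-Ab1 (1.60), H2-Eb1 (1.53) and H2-Aa (1.53), the peptide exchangers H2-DMb1 (1.32) and H2-DMa (1.10), and Ciita, the master activator of the class II genes, were raised with it. H2-Ob (1.01 to 1.70 TPM, adjusted p = 0.12) missed the threshold. Without any 1 library the count was 7 or 8. By contrast, none of the 16 genes of MHC class I and peptide loading passed the test, though all 16 differences were positive (median 0.29, H2-K1 0.53 with an adjusted p of 0.12); the difference between the class I and class II genes was not tested.

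The complement system was raised at several steps. It is a set of plasma proteins that tag cells and debris for uptake. Of 19 genes tested 14 rose (73.7%, against 6.49% of all genes), with a median of 0.79. The recognition chains C1qa (1.28), C1qb (1.36) and C1qc (1.13), which macrophages make, C2 (1.03) and C4b of the classical pathway, the central component C3 (1.00), factor B (Cfb) and properdin (Cfp) of the alternative pathway, and the receptors C3ar1 and C5ar1 were among them. C3 was at 114.8, 108.5 and 128.9 TPM in WT and at 238.1, 278.4 and 195.0 TPM in the knockout. The C1 inhibitor Serping1, a brake on the pathway, rose as well, and adipsin (Cfd), the adipocyte protease that activates factor B, did not pass the test at a level of 1507 against 1711 TPM on average (0.19, adjusted p = 0.36). Without 1 library the count lay between 11 and 13.

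Receptors and enzymes of innate defence were raised. Of 22 tested 20 rose (90.9%, against 6.49% of all genes), with a median of 0.92, and none fell. Clec7a, the receptor for fungal beta-glucan, went from 1.87, 3.996 and 4.66 TPM to 12.9, 12.8 and 9.36 TPM (1.54, adjusted p = 0.0108). The immunoglobulin receptors Fcgr3 (1.26), Fcgr4 (1.22) and Fcgr2b (1.17) were raised, Fcgr2b being the inhibitory member of the family. Chains of the phagocyte NADPH oxidase, among them Cybb and Cyba, together with the small GTPase Rac2 (1.04) rose, as did the toll-like receptors Tlr1, Tlr2, Tlr7, Tlr8, Tlr9 and Tlr13. Tlr4 (2.93 to 3.16 TPM) and its partner Ly96 (4.77 to 4.48 TPM) did not pass the test. Most of these genes were low, and the count fell to 10 without Txnip-/- replicate 1 and to 8 without Txnip-/- replicate 2. With a mean of at least 5 TPM it was 7. Tlr9, under 1 TPM in every WT library, reached the floor of 1 TPM only through the knockout libraries.

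The promoters of the innate receptor genes were searched on both strands for the purine-rich box GAGGAAGT, which myeloid transcription factors of the Ets family bind. The windows, from RefSeq on GRCm38.p6, ran from 250 bases before the start of a gene to 50 bases from the start on, and 16 of the 24 listed genes had one. The box lay in 4 of these 16, against 3.69% of 27025 genes. Of the 16 genes 14 were raised, which held all 4, and 2 were not. With only 2 genes not raised, these counts cannot show whether the box goes with the rise. Among the macrophage identity genes 1 of 16 promoters held it, that of C1qc, and among those of lipid-associated macrophages 2 of 14. The windows of 4 raised genes are shown because these genes were raised and their start is the one in the table: Fcgr4 (chr1:171018676-171018975, plus strand), Pirb, an inhibitory receptor (chr7:3720333-3720632, minus strand), Tlr9, a sensor of DNA (chr9:106222348-106222647, plus strand), and C1qc (chr4:136892865-136893164, minus strand). Each is written 5′ to 3′ on the strand of the gene, and the capitals mark the box, or its reverse complement where it lies on the other strand.
Fcgr4: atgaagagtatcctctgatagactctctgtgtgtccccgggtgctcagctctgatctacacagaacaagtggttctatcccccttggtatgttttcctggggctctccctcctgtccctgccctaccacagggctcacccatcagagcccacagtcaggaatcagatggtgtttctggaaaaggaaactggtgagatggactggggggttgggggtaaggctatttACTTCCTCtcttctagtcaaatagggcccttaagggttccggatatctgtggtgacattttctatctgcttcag
Pirb: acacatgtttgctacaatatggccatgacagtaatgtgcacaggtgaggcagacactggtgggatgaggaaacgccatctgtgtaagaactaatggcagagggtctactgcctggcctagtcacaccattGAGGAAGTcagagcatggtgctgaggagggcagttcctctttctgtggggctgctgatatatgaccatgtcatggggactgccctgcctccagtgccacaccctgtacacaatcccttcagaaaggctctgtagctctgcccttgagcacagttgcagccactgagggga
Tlr9: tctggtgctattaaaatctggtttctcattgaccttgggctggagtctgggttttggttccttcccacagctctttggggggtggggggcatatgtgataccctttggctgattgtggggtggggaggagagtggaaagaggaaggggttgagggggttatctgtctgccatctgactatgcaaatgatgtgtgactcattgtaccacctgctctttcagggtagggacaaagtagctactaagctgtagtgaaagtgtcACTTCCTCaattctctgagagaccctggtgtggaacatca
C1qc: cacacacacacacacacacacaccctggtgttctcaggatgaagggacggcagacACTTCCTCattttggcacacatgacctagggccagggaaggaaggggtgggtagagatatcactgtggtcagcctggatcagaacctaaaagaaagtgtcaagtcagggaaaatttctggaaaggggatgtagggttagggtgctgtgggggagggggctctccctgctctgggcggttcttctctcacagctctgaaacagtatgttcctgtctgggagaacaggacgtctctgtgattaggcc
The box began 24 bases before the start in Fcgr4 and 120 and 195 bases before it in Pirb and C1qc, and in Tlr9 it lay behind the start. Fcgr4 was at 1.01, 1.81 and 1.73 TPM in WT and at 4.83, 5.49 and 4.16 TPM in Txnip-/- libraries, Pirb at 1.77, 2.30 and 2.75 TPM against 5.65, 6.55 and 4.51 TPM, and Tlr9 at 0.47, 0.68 and 0.50 TPM against 1.62, 1.62 and 1.36 TPM. A match of letters is no sign that a factor binds there.

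Chemokines of the CC family and their receptors on monocytes and T cells were raised in part. Of 23 tested 7 rose (30.4%, against 6.49% of all genes), with a median of 0.62. Ccl6 (1.77), Ccl9 (1.40) and Ccl5 (1.48), which draw leukocytes, Cxcl16 (1.21), and the receptors Ccr2 (1.49) and Ccr7 (0.77) were among those higher. Ccr2, which monocytes use to enter tissue, was at 4.21, 5.003 and 7.30 TPM in WT and at 22.5, 14.7 and 14.6 TPM in Txnip-/- BAT. Its main ligand Ccl2 (2.59 to 3.77 TPM, adjusted p = 0.32) did not pass the test. Of 10 cytokine and acute phase genes 4 rose (40%, against 6.49% of all genes): Casp4 1.01, Casp1 0.72, Socs3 0.68 and Il6ra 0.57. Il6, Il1b and Tnf were under the floor of 1 TPM. The chemokine count was 4 without Txnip-/- replicate 1 and 3 without Txnip-/- replicate 2, the cytokine count was 2 without WT replicate 1 or 2 or Txnip-/- replicate 1 or 3 and 1 without Txnip-/- replicate 2, and Ccl5 lost its call without WT replicate 2 or either of these, with an adjusted p of up to 0.137.

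Markers of other immune cells were low. Of 12 T and NK cell markers 5 rose (41.7%, against 6.49% of all genes): Klrd1 1.24, Nkg7 1.24, Cd4 0.94, Lck 0.92 and Il7r 0.92. The list's summed level went from 9.71 to 23.7 TPM in WT libraries to 36.0 to 48.0 TPM in the knockout. Klrd1, a receptor of NK cells, was at 0.66, 1.00 and 1.46 TPM in WT and at 3.75, 3.63 and 3.93 TPM in Txnip-/- libraries. Cd3e and Cd3g, chains of the T cell receptor complex, did not pass the test, Cd3e being at 1.82 against 2.7 TPM (adjusted p = 0.27) and Cd3g at 1.28 against 3.31 TPM (adjusted p = 0.057). Dendritic cell markers rose in 4 of 7 (57.1%), Siglech, Ccr7, Cd209a and Clec10a (0.58 to 0.86). B and plasma cell markers rose in 2 of 4 (50%), Jchain and Cd79b. Neutrophil and mast cell markers rose in 1 of 7 (14.3%), the receptor Kit. The share of all genes was 6.49%. The call of Kit was lost without any WT library or without Txnip-/- replicate 1 or 3 (adjusted p of up to 0.364). Ms4a1 (0.51 to 0.65 TPM), which marks B cells, was under the floor of 1 TPM. Leaving out 1 library took the T and NK count to 3 without Txnip-/- replicate 1 and 2 without Txnip-/- replicate 2, the dendritic count to 1 without either, and the B and plasma cell count to 1 without any WT library or without Txnip-/- replicate 2 or 3.

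Only some lysosomal genes rose. Of 72 tested, 14 rose (19.4%, against 6.49% of all genes) and 1, Galc, fell (1.39%, against 2.17%). The list's median was 0.15. Ctss, the cathepsin that trims the invariant chain, went from 13.2, 26.1 and 33.9 TPM to 101.5, 106.4 and 68.1 TPM (1.94, adjusted p = 0.0114). The cathepsins Ctsh (1.17), Ctsk (1.04), Ctsc (0.89), Ctsb (0.59) and Ctsa (0.43), the membrane proteins Laptm5 (1.34) and Cd63 (0.96), the proton pump subunit Tcirg1 and progranulin (Grn) were also higher. Lamp1 (335 to 346 TPM) and Lamp2 (64.8 to 68.1 TPM), which coat every lysosome, did not pass the test (adjusted p = 0.75 and 0.53). The raised count was 8 without Txnip-/- replicate 1 and 9 without WT replicate 3, and the lowered count was 0 without WT replicate 1 or 3 or any knockout library.

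The lysosomal E-box TCACGTGA, bound by the factors that switch on lysosome genes together, was found in 7 of 58 lysosomal promoters, against 1.12% of all 27025 genes. Of the 11 raised genes with a window, 1 held it, Ctsa, and the other 6 were among the 47 genes that were not raised. The shorter E-box CACGTG, which is part of it, was in 17 of 58 and in 8.09% of all genes. Ctsa encodes the protective protein of beta-galactosidase and was at 45.9, 49.2 and 48.7 TPM in WT and 63.5, 71.3 and 60.8 TPM in Txnip-/- libraries. Its window (chr2:164833523-164833822, plus strand), shown as the 1 raised gene with the element, is written with both copies of TCACGTGA in capitals.
Ctsa: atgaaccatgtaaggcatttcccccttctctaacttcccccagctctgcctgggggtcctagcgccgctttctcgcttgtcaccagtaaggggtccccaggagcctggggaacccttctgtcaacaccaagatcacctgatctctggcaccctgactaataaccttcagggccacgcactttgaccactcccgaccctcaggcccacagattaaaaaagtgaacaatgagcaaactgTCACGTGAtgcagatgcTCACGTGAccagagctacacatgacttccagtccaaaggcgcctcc
The first copy began 13 bases before the start of the gene and the second behind it.

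Genes of fibroblasts and of the matrix they build formed the second large group. Of 14 fibroblast and progenitor markers 10 rose (71.4%, against 6.49% of all genes), with a median of 0.64. The list's summed level was 863 to 1076 TPM in WT and 1411 to 1567 TPM in Txnip-/- libraries. Mfap5 (1.05) and the proteoglycan Lum (0.89) of the matrix, the actin-severing protein Gsn (0.84), the growth factor receptor Pdgfra (0.70), the surface protease Fap (0.70), Dpt (0.57), Dcn (0.45) and Cd34 (0.38) were among the raised markers. Pdgfra was at 5.47, 4.56 and 4.15 TPM in WT and at 7.70, 8.43 and 8.75 TPM in Txnip-/- BAT, with a gap between the groups wider than the spread within either. Pi16 (8.30 to 6.02 TPM) and Ly6a (82.6 to 109.9 TPM) did not pass the test. The count was 5 without WT replicate 3 and 6 without Txnip-/- replicate 1 or 2.

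Collagen genes were raised in part. Of 21 collagens tested 12 rose (57.1%, against 6.49% of all genes), with a median of 0.61 over all 21. The count was 10 or 11 without 1 library. Col1a1, the main chain of collagen I, went from 44.1, 39.8 and 27.4 TPM to 99.5, 111.1 and 100.4 TPM (1.48, SE 0.16, adjusted p = 0.00351), and Col3a1 from 159.7, 126.2 and 109.2 TPM to 331.3, 333.4 and 333.9 TPM (1.35, SE 0.13, adjusted p = 0.00297). The knockout libraries of Col3a1 were almost equal and all far above the highest WT library. The fibrillar chains Col1a2 (1.23), Col5a1 (0.94) and Col5a2, and the microfibrillar chains Col6a1 (1.01), Col6a2 (1.07) and Col6a3 rose with them. The basement membrane chains Col4a1 (128 to 159 TPM, adjusted p = 0.11) and Col4a2 (97.5 to 110.1 TPM, adjusted p = 0.34) did not pass the test. The 28 collagens together summed to 586 to 756 TPM in WT and 1212 to 1295 TPM in Txnip-/- libraries.

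**Figure D3:**
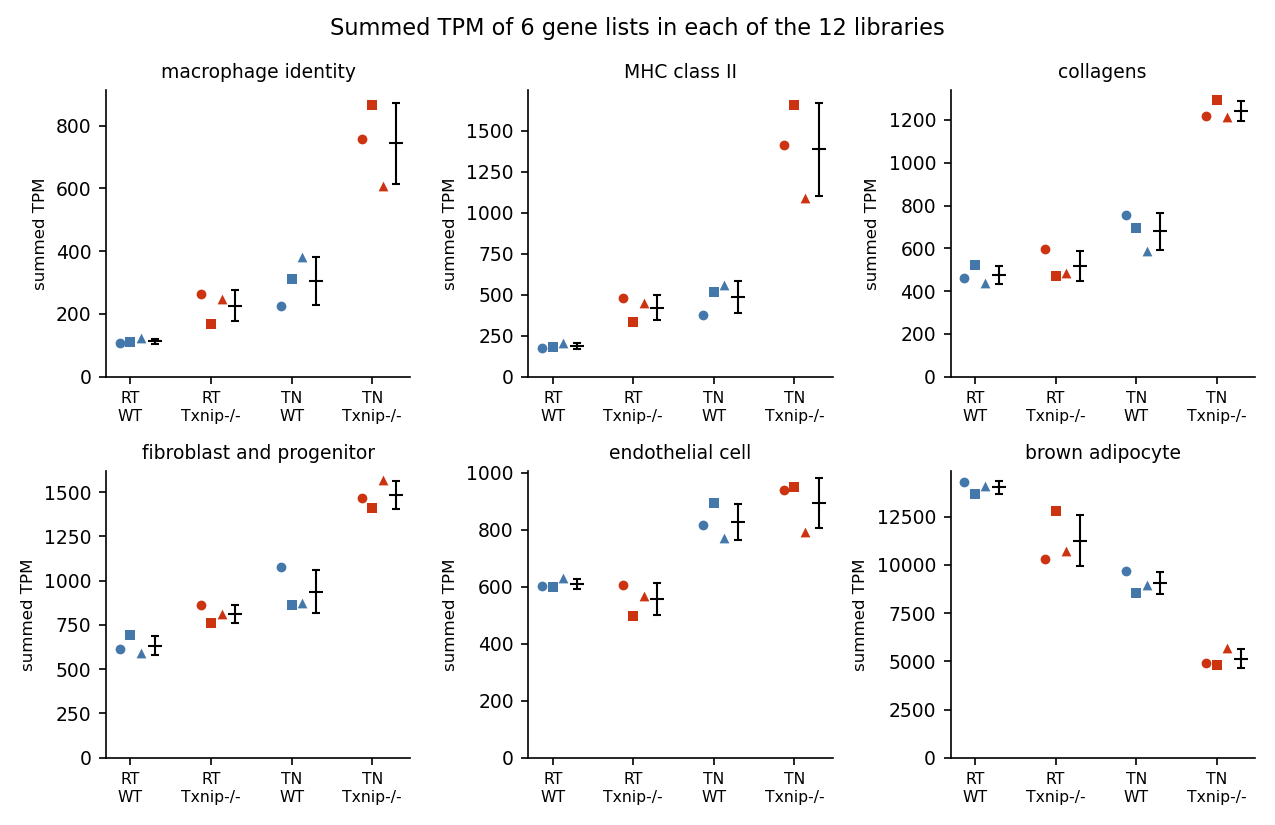
Summed level (TPM) of 6 gene lists in the 12 libraries, WT and Txnip-/- at 30 °C and 23 °C, 1 panel per list, with a point per library and a bar for the mean ± SD of 3 libraries. At 30 °C the knockout libraries exceed WT for the macrophage identity genes (607 to 866 against 225 to 380 TPM) and the collagens, and lie below WT for the brown adipocyte genes.

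Other matrix genes followed. Of 32 matrix proteins and crosslinkers 13 rose (40.6%, against 6.49% of all genes) and all 32 differences were positive (median 0.43). They included elastin (Eln, 0.91), the proteoglycan Bgn (0.91), the microfibril protein Mfap2 (0.78), the crosslinking oxidases Loxl1 (0.69) and Loxl2, and the collagen-binding protein Sparc (0.56), which went from 496.1, 564.5 and 445.1 TPM to 708.9, 787.8 and 709.8 TPM. Fibronectin (Fn1, 7.69 to 13.5 TPM) missed the threshold with an adjusted p of 0.058. Of 24 metalloproteinases and inhibitors 8 rose (33.3%, against 6.49% of all genes). Mmp14 (10.2, 8.83 and 8.29 TPM against 19.7, 17.5 and 18.3 TPM, log2 difference 0.95), a collagenase anchored in the membrane, its substrate Mmp2 (0.82), the inhibitors Timp1 (1.19) and Timp2 and the leukocyte protease Adam8 (1.16) joined Mmp12 and Mmp23. For Mmp14 the groups were far apart relative to their spread. The matrix count fell to 8 without WT replicate 2 or Txnip-/- replicate 1 or 2, and the metalloproteinase count to 4 without Txnip-/- replicate 1 or 2.

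Of 16 integrins tested 5 rose (31.2%, against 6.49% of all genes), all chains of leukocytes: Itgax (1.53), Itgb2 (1.37), Itgal (0.81), Itgb7 (0.79) and Itgam (0.75). Of these 5 calls 1 was left without Txnip-/- replicate 1 or without replicate 2, and the count was 3 without WT replicate 1 or 2. Among cytoskeletal genes, annexins and S100 proteins, 12 of 33 rose (36.4%, against 6.49% of all genes). They included S100a4 (1.14), Tmsb10 (0.90), Anxa1 (0.73), S100a6 (0.71) and Arpc1b (0.60). The count was 4 without WT replicate 1 or Txnip-/- replicate 2, 5 without Txnip-/- replicate 1 and 7 without WT replicate 2. The abundant actin-sequestering peptide Tmsb4x went from 798.5, 962.1 and 1024 TPM to 1326, 1393 and 1156 TPM, a log2 difference of 0.48, but lost its call in 9 of the 15 alternatives, among them without any WT library and without Txnip-/- replicate 1 or 2 (adjusted p of up to 0.133). Of 25 growth factor and TGF-beta genes 6 rose (24%, against 6.49% of all genes), including Igf1 (1.04), the activin chain Inhbb (1.00) and Tgfbi (0.72). Tgfb1 (17.1 to 22.4 TPM) missed the threshold with an adjusted p of 0.07. The growth factor count was 1 without Txnip-/- replicate 1 and 3 without WT replicate 1, WT replicate 3 or Txnip-/- replicate 2.

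Some raised genes belong to pathways of adipocyte metabolism, although bulk tissue does not show which cells held their RNA. Fat synthesis is driven by the glucose-sensing factor ChREBP, encoded by Mlxipl. Of 18 lipogenesis genes 3 rose (16.7%, against 6.49% of all genes). They were Mlxipl (122.3, 183.0 and 127.8 TPM against 229.8, 227.4 and 239.4 TPM, log2 difference 0.71), the fatty acid elongase Elovl6 (0.78) and Thrsp, a nuclear protein that accompanies lipogenesis (0.61). Thrsp was among the most abundant raised genes, at 1865, 2342 and 2140 TPM in WT and 3118, 3219 and 3292 TPM in Txnip-/- BAT. The knockout libraries of Mlxipl and Thrsp varied less than those of WT. Fasn (1832 to 2866 TPM, adjusted p = 0.10) and Acaca (142 to 224 TPM, adjusted p = 0.062), the enzymes of chain synthesis, missed the threshold. Across single omissions the lipogenesis count ranged from 1 to 6, being 6 without WT replicate 2 and 1 without any of WT replicate 1, WT replicate 3, Txnip-/- replicate 1 and Txnip-/- replicate 2. WT replicate 2 was high for Slc2a5 and Mlxipl and for the summed lipogenesis genes, at 24351 TPM against 11316 and 18870 TPM in the other WT libraries.

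Of 33 genes for sugar transport and glycolysis 4 rose (12.1%, against 6.49% of all genes) and 2 fell (6.06%, against 2.17%). The list's median was 0.03. Besides Slc2a5, the kinase Pdk1, which slows pyruvate entry into the mitochondrion, was raised (40.6, 58.5 and 42.8 TPM against 95.1, 95.9 and 86.0 TPM, log2 difference 0.97, adjusted p = 0.00752), as were the hexokinase of leukocytes Hk3 (0.87) and the regulator Pfkfb3 (0.44). The glucose transporter Slc2a1 fell from 6.60, 7.02 and 8.23 TPM to 4.10, 3.26 and 4.39 TPM. Without Txnip-/- replicate 1 or 2 the raised count was 2, and the lowered count was 1 without WT replicate 3 or any knockout library. Txnip's nearest relative on the alpha-arrestin list, Arrdc4, which is also induced by glucose and restrains its uptake, rose from 4.75, 6.48 and 4.94 TPM to 14.2, 14.6 and 12.1 TPM (1.20, SE 0.12, adjusted p = 0.00314), while Arrdc1, Arrdc2 and Arrdc3 did not pass the test, the raised count of this list being 2 without WT replicate 2 or Txnip-/- replicate 3.

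The uncoupling proteins moved in opposite directions. Ucp1 fell from 1136, 620.9 and 685.9 TPM to 255.0, 154.0 and 339.1 TPM (-1.72, SE 0.31, adjusted p = 0.0151). Ucp2, present in macrophages and many other cells, rose from 46.7, 54.5 and 49.2 TPM to 91.1, 116.0 and 92.8 TPM (0.98, adjusted p = 0.00383), and Ucp3, found in muscle and BAT, from 22.6, 22.6 and 24.4 TPM to 43.7, 56.0 and 61.9 TPM (1.17, adjusted p = 0.00351).

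Iron genes were raised in 5 of 15 cases (33.3%, against 6.49% of all genes). They were Slc11a1, an iron exporter of the phagosome (1.15), the metalloreductase Steap4 (0.90), ceruloplasmin (Cp, 0.74), transferrin (Trf, 0.67) and the ferritin heavy chain Fth1 (0.54). Fth1 had the highest level of all raised genes, 2698, 3336 and 3537 TPM in WT against 4705, 4758 and 4373 TPM in Txnip-/- libraries. Its 3 knockout libraries were close to each other and above all WT libraries, but the call was lost without WT replicate 2 or Txnip-/- replicate 1 or 2 (adjusted p of up to 0.206), and the iron count was 3 without WT replicate 2 or Txnip-/- replicate 1 or 2. Of 34 genes of the thioredoxin and antioxidant systems 2 rose and 2 fell (5.88% each, against 6.49% and 2.17% of all genes): Gpx3, a secreted glutathione peroxidase, went from 2874, 2331 and 2623 TPM to 4511, 4322 and 3339 TPM (0.63), Gpx7 rose by 0.38, and catalase (Cat) and Gsta4 were lower. None of the raised calls was left without WT replicate 3, without Txnip-/- replicate 1 or 2, or on the authors' log-scale values, and 1 was left without WT replicate 2. The lowered count was 0 without Txnip-/- replicate 1. It was 1 without WT replicate 2 or Txnip-/- replicate 2 and on the authors' log-scale values. Thioredoxin itself, Txn1, which Txnip binds, was at 231 TPM in WT and 326 TPM in the knockout (0.50, adjusted p = 0.10).

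Other lists had few raised members. Of 19 endothelial markers 1 rose, Vwf (5.26%, against 6.49% of all genes), with summed levels of 771 to 894 TPM in WT and 794 to 949 TPM in Txnip-/- libraries, and of 12 mural cell markers none rose and 1, Des, was lower (8.33%, against 2.17% of all genes), the lowered count being 0 without WT replicate 3 or Txnip-/- replicate 1. Of 28 interferon-stimulated genes 1 rose, Oasl2 (3.57%, against 6.49% of all genes), and of 30 genes of the stress response 1 rose, Atf3 (3.33%), and 2 were lower, Asns and Phgdh (6.67%, against 2.17% of all genes), the lowered count being 4 without WT replicate 1 and 1 without any other single library. The calls of Vwf, Oasl2 and Atf3 were not stable to the loss of 1 library: Vwf was lost without WT replicate 1 or 3 or any knockout library (adjusted p of up to 0.147), Oasl2 without any WT library or Txnip-/- replicate 1 or 2 (0.125), and Atf3 without any knockout library. Among 21 cholesterol synthesis genes Fdft1 alone was raised (4.76%, against 6.49% of all genes). Of the 21 differences 2 were positive, and the median was -0.18. Fdft1 (72.9, 71.5 and 68.2 TPM against 110.7, 102.3 and 103.6 TPM) lies against Ctsb on the opposite strand. Cholesterol efflux genes rose in 3 of 13 cases (23.1%, against 6.49% of all genes): Pltp 0.75, Soat1 0.64 and Abcg1 0.40. The count was 1 without WT replicate 1 or 2 or Txnip-/- replicate 1 or 3. Cell cycle genes rose in 5 of 27 (18.5%, against 6.49% of all genes). They were led by the cyclin Ccnd1 (6.50, 7.37 and 6.59 TPM against 13.8, 13.8 and 19.7 TPM, log2 difference 1.08). The cell cycle count was 3 or fewer without any 1 library and 1 without Txnip-/- replicate 1 or 2. Mki67 (0.79 to 1.37 TPM) did not pass the test. Erythroid markers, which follow the blood left in the tissue, were raised in none of 5.

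**Figure D4:**
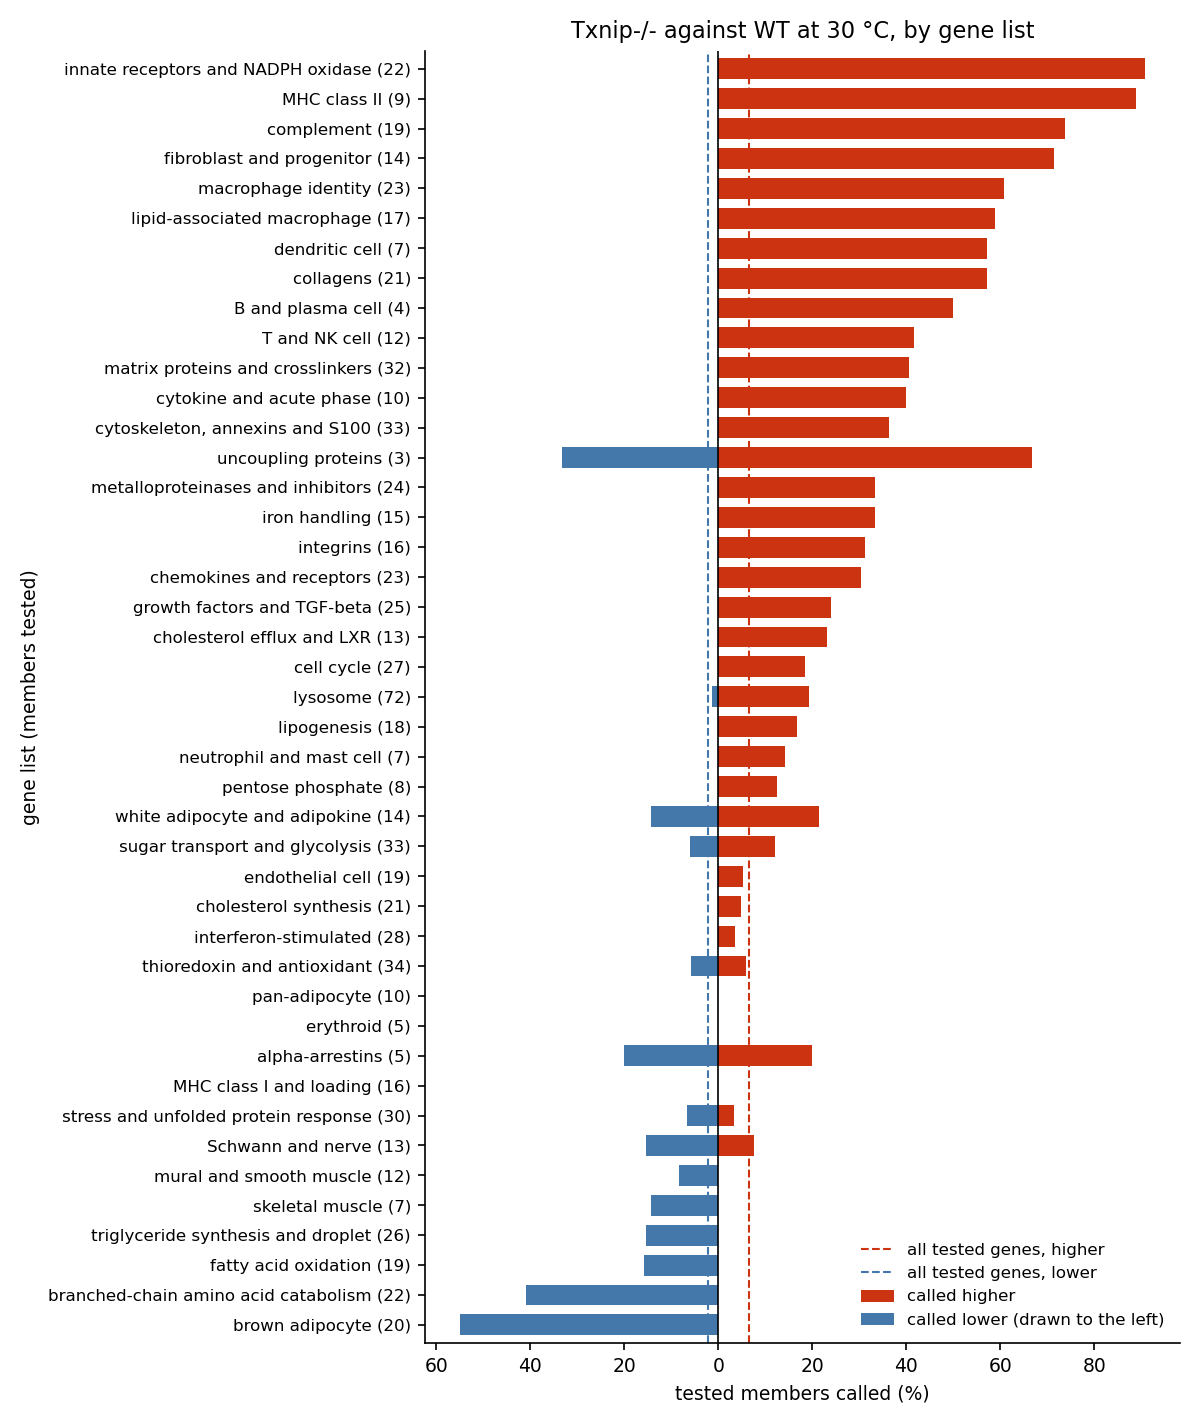
For each of 43 gene lists, the percent of its tested members called higher (bars to the right) and lower (bars to the left) in Txnip-/- BAT at 30 °C, with dashed lines at the percent over all 12891 genes, 6.49 and 2.17. Innate receptors (90.9%), MHC class II (88.9%) and complement (73.7%) reach farthest to the right, and the brown adipocyte list (55.0%) farthest to the left.

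The lowered genes are given only for contrast. Of 20 brown adipocyte markers 11 fell (55%, against 2.17% of all genes). In 14 all 3 knockout libraries lay below all 3 WT libraries, as was so for 13.4% of all genes tested. Cox8b, a subunit of cytochrome oxidase, went from 3028, 2379 and 2648 TPM to 1052, 1068 and 1282 TPM (-1.24), and Fabp3, a fatty acid carrier, from 561.9, 489.9 and 609.7 TPM to 233.4, 245.5 and 248.9 TPM (-1.18). Apart from Txnip, the lowered genes with a mean of at least 5 TPM were led by Lncbate10, a non-coding RNA of BAT (-3.01), the paraoxonase Pon1 (-2.43) and the glycogen synthase Gys2 (-2.02). The count of 11 was 7 without WT replicate 3, 4 without Txnip-/- replicate 1 and 5 without Txnip-/- replicate 2. The summed brown adipocyte level was lower by a wide margin in the knockout (4810 to 5695 TPM against 8525 to 9671 TPM), and since TPM is a share of all transcripts, the part of this decrease in the rise of other genes was not tested; with each library centred on its median 728 genes rose.

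Genes close to a deleted gene can carry DNA of the strain in which it was made, so those near Txnip on chromosome 3 were counted apart; whether such DNA was present was not tested. Within 10 Mb of it 234 genes were tested, of which 17 rose (7.26%, against 6.49% of all genes) and 3 fell (1.28%, against 2.17%), shares near those of all genes tested. The raised ones included Ctss, Ctsk, Fcgr1 and a run of S100 genes (S100a4, S100a6 and S100a10). Windows of 5 and 20 Mb held 8 raised of 93 (8.60%) and 23 raised of 310 (7.42%).

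The response at 23 °C gave far fewer calls. Of 11980 genes tested there, 91 were higher in the knockout (0.76%). Of the 836 genes raised at 30 °C, 654 were tested at 23 °C, 55 were called higher (8.41%) and none lower, 581 had a positive difference, and the median was 0.27. The calls at 23 °C rested on single libraries: over both directions there were 178, and the count was 2 without WT replicate 2, 25 without Txnip-/- replicate 3, 31 without WT replicate 1, 33 without Txnip-/- replicate 1 and 87 without Txnip-/- replicate 2 of that temperature. Skeletal muscle markers moved with genotype at 23 °C, with 9 of 12 called higher and a median of 2.15 (summed level 82.2 to 86.0 TPM in WT and 87.8 to 148.0 TPM in Txnip-/- libraries), and their part in these results was not tested. At 30 °C none of the 7 muscle markers tested was called higher and 1 was lower, Myl1, a myosin light chain (73.2, 72.1 and 73.9 TPM against 45.0, 48.0 and 50.1 TPM, log2 difference -0.61). The summed muscle level there was 87.1 to 108.1 TPM in WT and 56.9 to 79.5 TPM in Txnip-/- libraries.

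A test of the difference between the responses found 1 gene of 12486 (0.00801%), Txnip itself. It covered 772 of the 836 raised genes, none of which was called to respond differently, the smallest adjusted p being 0.0776. Of these 772, 367 (47.5%) had an unadjusted p below 0.05 for the difference, against 12.6% of all genes; since they were chosen for a large difference at 30 °C, that share is a description. MHC class II genes had a median of 1.32 at 30 °C (9 tested) and of 1.12 at 23 °C (6 tested), where 5 of 6 were called. Cd74 had 1.48 and 1.10 and H2-Aa 1.53 and 1.23, and the difference between the temperatures was not tested for the group. Collagens had a median of 0.61 at 30 °C and of 0.18 at 23 °C with none of 21 called there, and Col6a1 (1.01 and 0.21) and Col6a2 (1.07 and 0.21) had an adjusted p of 0.0776 for the difference. Ucp3 had a log2 difference of 1.17 at 30 °C and of -0.27 at 23 °C, where it was not called (adjusted p = 0.41), with the same adjusted p for the difference between them. The macrophage identity genes summed to 107 to 123 TPM in WT and to 169 to 264 TPM in Txnip-/- libraries at 23 °C, again with no overlap between the genotypes, and 4 of 17 were called higher there.

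**Figure D5:**
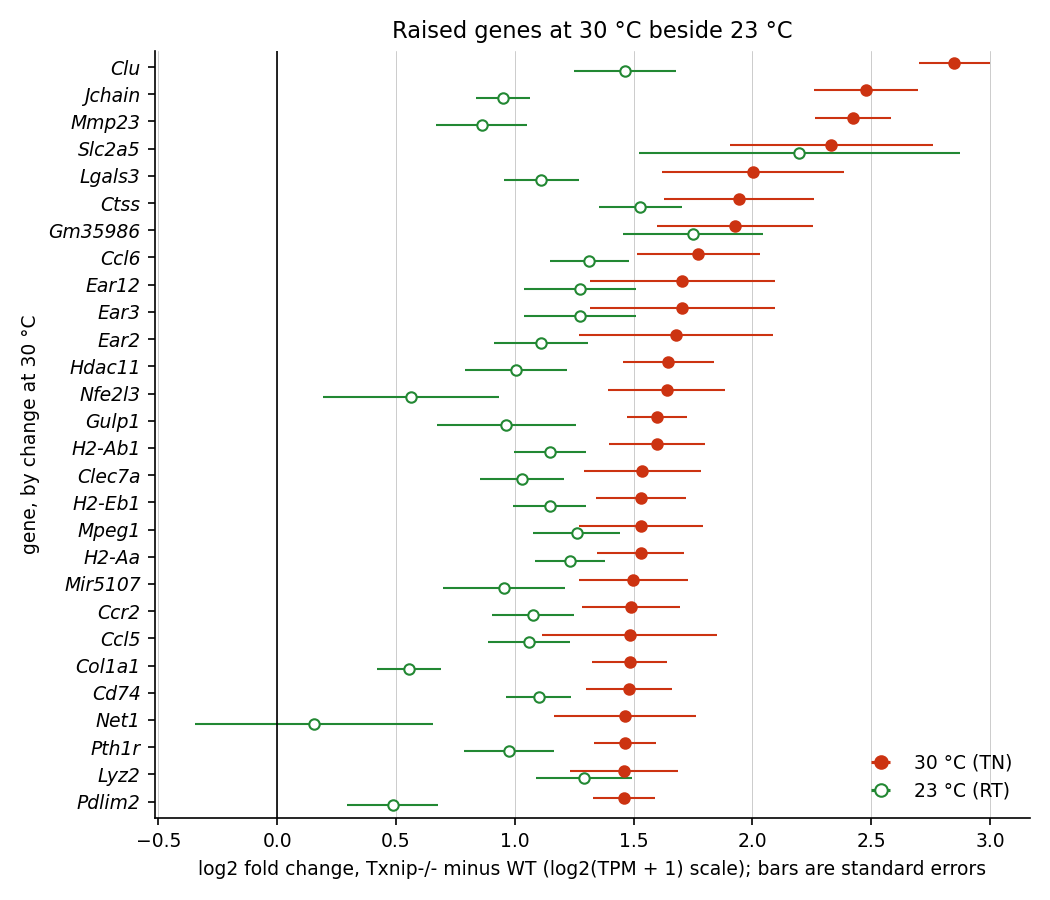
Log2 differences, Txnip-/- minus WT (horizontal axis), of 28 of the 30 raised genes, 1 line per gene. Filled points stand for 30 °C and open points for 23 °C, with bars of 1 SE. Mmp12 and Gpnmb were below the floor of 1 TPM at 23 °C. The open points lie to the left of the filled ones. They are nearest for Slc2a5 (2.33 at 30 °C and 2.20 at 23 °C) and Gm35986 (1.93 and 1.75) and far apart for Net1 (1.47 and 0.16).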

How the data were processed

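BAT RNA of 10-week-old male WT and Txnip-/- mice was sequenced by the authors, 3 libraries per genotype at each of 30 °C and 23 °C. Per the study's methods the reads were aligned to mm10 with STAR 2.7.5a and counted over exons with HOMER, version 4.11.1 in the submitters' processing notes. The deposited values are TPM per gene for 25124 genes and, beside them, the authors' log-scale values of the same libraries, treated here as log2, although the transform behind them is not given in the sources used here. TPM of the listed genes summed to 55.38 to 56.45% of the total to which TPM is scaled, in each library. The files also hold fold changes and p-values that the authors computed between groups, which were not used. As gene counts were not used here, limma (3.58.1, R 4.3.3) on log2(TPM + 1) took the place of the authors' DESeq2 test, and a fold change on this scale understates the change of low genes.

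Genes with a mean of at least 1 TPM over the 6 libraries were tested with an empirical Bayes trend and Benjamini-Hochberg adjustment over all of them. Calls needed a difference on the log2(TPM + 1) scale beyond 0.32 in either direction and an adjusted p below 0.05, and the procedure was tested on simulated data. No label says that replicate numbers pair the libraries. The effects at 30 °C and 23 °C were compared in 1 model of 12 libraries with a contrast of the differences. The genes named were Txnip, the 30 raised and 10 lowered genes with the largest log2 difference at a mean of at least 5 TPM with no overlap between the groups, the 10 raised genes of highest level, called members of 43 gene lists with values for up to 6 of each, cell type markers, called genes within 10 Mb of Txnip, and raised genes with a motif. A few genes that this rule names are not reported here, although they remain in the counts. List members named for not passing the test were chosen after their values were seen. The comparison, the members and the lists were chosen with earlier results of these data known. Alternatives were the pseudocount, the filter, the scaling, the fold threshold, a replicate block, the authors' log-scale values and leaving out each library. Plots came from matplotlib 3.10.9 (Python 3.11.15).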

Additional observations from a re-analysis of the deposited data

Results flagged for a closer look

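Txnip itself stood apart between the temperatures, being the gene that the test of the difference between both knockout effects called. Its log2 difference was -6.46 at 30 °C and -4.36 at 23 °C, so the effects differed by -2.09 on the log2 scale (adjusted p = 0.00344 with limma). The WT libraries held 563.6, 580.9 and 693.9 TPM at 23 °C, below the WT libraries at 30 °C, and the knockout libraries 24.8, 26.9 and 35.4 TPM, above those at 30 °C. The opposite-strand transcript Gm15441 differed by -0.97 with an adjusted p of 0.0776, and strand cannot be told apart for this pair.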

How the results depend on the processing

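With 3 libraries per genotype the counts were the least stable values, and no called gene followed through the alternatives changed direction. Against 1116 genes called at 30 °C (836 higher, 280 lower), 621 (483 and 138) were called with no filter on low values, 599 (515 and 84) with a fold threshold of 1.5, 511 higher with a mean of at least 5 TPM, and 184 lower on the authors' log-scale values; 429 of the 483 and 504 of the 511 were among the 836. Leaving out each library in turn gave 456 to 1005 in all, 359 to 724 higher and 97 to 281 lower, the fewest without Txnip-/- replicate 1, where fewer samples were tested; 347 of the 359 were among the 836. Txnip was between -6.58 and -6.37 without 1 library and at -4.67 on the authors' log-scale values. Centring on the median gave 65.9% higher among the called genes against 74.9%. At 23 °C the 178 calls became 101 with a mean of at least 5 TPM, 100 with a replicate block and 2 to 159 without 1 library. The difference between temperatures, 1 gene, gave 4 with a replicate block within temperature and 1 to 6 without 1 library. Replicate numbers did not pair the libraries (correlations of deviations 0.04, 0.02 and -0.03), and the replicate block called 977 genes at 30 °C, 728 of them higher. Of the 30 raised genes with the largest change 20 were called in all 15 alternatives, and of the 10 most abundant raised genes 1 was. Genes under a few TPM rest on few reads, and depth per gene is unknown without counts.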

Other observations

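Outside the gene lists, 643 of the 836 raised genes remained. Families of leukocyte surface receptors had raised members, some of which, such as Clec7a and Clec10a, are also on the lists; these families were chosen after their values were seen and get no test of their own. Of 5 Cd300 receptors tested 4 rose (Cd300ld from a mean of 1.70 to 5.30 TPM, log2 difference 1.23, and Cd300a from 1.95 to 5.64 TPM, 1.17), of 6 Slamf receptors 5 rose (Ly9 1.23, Cd84 1.18, Cd48 1.01, Slamf7 0.96 and Slamf9 0.88), and of 7 Ms4a genes 4 rose, led by Ms4a7 (2.39 to 7.96 TPM, 1.42). Of 18 C-type lectin genes 11 rose, among them Clec4a1 (3.18 to 7.84 TPM, 1.11). Against these shares, 6.49% of all genes tested were called higher, and 5.73% of 349 microRNA and small nucleolar RNA entries, which poly(A) selection recovers mostly as parts of their host genes.

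Both Hcar genes tested, which encode receptors for lactate and for ketone bodies on adipocytes, were raised: Hcar1 from 12.2 ± 1.63 to 34.2 ± 9.85 TPM (SD over 3 libraries, log2 difference 1.38, adjusted p = 0.00669) and Hcar2 from 3.77 ± 0.61 to 7.85 ± 0.35 TPM (0.90, adjusted p = 0.00542). Of 13 Schwann and nerve markers tested 11 had a positive difference, with a median of 0.30, 1 was called higher (7.69%, against 6.49% of all genes) and 2 lower (15.4%, against 2.17%). The lower ones were Gldn, which gathers sodium channels at the node, at 7.06, 8.77 and 10.2 TPM in WT and 0.37, 0.19 and 0.52 TPM in Txnip-/- BAT (-2.83), and S100b (-1.12), while Cnp rose by 0.50; the summed level of all 17 markers listed overlapped between the genotypes, at 152 to 159 TPM and 141 to 205 TPM. Of 86 ribosomal protein genes 83 had a positive difference, with a median of 0.24. Of the 86, 10 were called higher (11.6%, against 6.49% of all genes) and 1, Rpl39l, lower (2.17% of all genes were lower). On the authors' log-scale values none was called higher and the median was 0.17. Among the markers of white adipocytes 3 of 14 rose (21.4%, against 6.49% of all genes), Nnat 1.06, Retn 0.88 and Mest 0.67. Rbp4 and Enpp2 fell, 2 of 14 (14.3%, against 2.17%). Without WT replicate 1, WT replicate 3 or Txnip-/- replicate 3, 1 raised call was left. The lowered count was 1 without WT replicate 3 or any knockout library.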
